A study of Mus musculus with 2 samples.

Results

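The Gnas locus on mouse chromosome 2 makes several transcripts from alternative first exons that are spliced to a common set of downstream exons. From its own promoter, exon 1 gives the message of Gs alpha, the G protein subunit that couples hormone and neurotransmitter receptors to adenylyl cyclase and so to cyclic AMP. The upstream exons give Nesp, a maternally expressed message for a granin-like secretory protein, and XL, a paternally expressed message for an extra-large form of the G alpha subunit. The paternal exon 1A transcript is not known to code for a protein, and Nespas is a paternal noncoding RNA that runs antisense through Nesp.

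The members were the entries of the authors' catalog of imprinted genes that start between 173.9 and 174.2 Mb of chromosome 2 on mm9. This rule found 4 of 128 catalog entries, named Nespas, Gnas, Nesp and Gnasxl, with 3 distinct sets of exons. The reads came from 2 RNA-Seq libraries of whole brain at E17.5, each from F1 mouse embryos. The BxC library came from a C57BL/6J mother and a CastEi/J father, and the CxB library from a CastEi/J mother and a C57BL/6J father. Both crosses thus have 1 copy of the locus from each strain, with the parent of origin exchanged between them. The libraries also differed in reads on chromosome Y, with 1852 in BxC and 18212 in CxB, so in every ratio between them cross and sex cannot be told apart. The labels name no treatment or mutation. Each cross is represented by 1 library, so the crosses were compared without a test, and the intervals given here cover counting error only. The BxC library held 128944754 uniquely aligned reads and the CxB library 109719746, deposited as 36575945 and 31155725 lines that each carry a read count. Several lines can share 1 position, so a count by lines is not a count by position. Over exons 2 to 12 of Gnas, for example, 16108 lines in BxC lay on 2698 read starts. The alignments hold no bases, so the parental allele behind a read was not analysed here.

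The joins between exons that separate these transcripts are shown first, because most reads lie in exons that the transcripts share. Each line gives the last 15 bases of a first exon, or of the last small exon before the join, in lower case and the first 15 bases of exon 2 in capitals, read 5′ to 3′ on the plus strand of the mm9 genome. All of them enter exon 2 at position 174159713 of chromosome 2, which spans chr2:174159713-174159785. The exon ends to its left lie at 174110978 for Nesp, 174125718 for XL, 174126026 for the 95-base exon after XL, 174153442 and 174153632 for 1A, and 174155935 for exon 1.
Nesp: ttttcatggataaagGTGCTGGAGAGTCTG
XL exon: gcctgctgcttctagGTGCTGGAGAGTCTG
95-base exon after XL: aggcgggggcgtgagGTGCTGGAGAGTCTG
exon 1A, straight from its first donor: gcgtctcactcacatGTGCTGGAGAGTCTG
exon 1A, through the 24-base exon: aaggagcacctaaggGTGCTGGAGAGTCTG
exon 1: gcctgctgctgctggGTGCTGGAGAGTCTG

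The exon blocks of the Gnas and Gnasxl entries did not match the transcripts after which these entries are named. The Gnas and Nesp entries had the same 3 blocks, which are both Nesp exons and 72 bases of exon 2, with 1111 bases in all. The coding span of the Gnas entry, chr2:174110175-174110936, lay inside Nesp exon 2 (chr2:174110105-174110978), and neither entry held a base of exon 1. These blocks had 5390 reads in BxC and 4687 in CxB. Of these reads, 57.5% and 59.6% overlapped exon 2, to which each of the first exons can be joined, and 42.7% and 40.5% overlapped the Nesp exons.

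The Gnasxl entry started in exon 1A. It held 52 bases of exon 1A and the 24-base exon, followed by shared exons 2 to 12. It held 0 bases of the XL exon and 0 of exon 1. Of its 118523 reads in BxC, 99.6% lay in the shared exons and 497 (0.419%) in the 1A blocks. Of its 95528 reads in CxB, 99.5% lay in the shared exons and 480 (0.502%) in the 1A blocks. The reads of this entry are thus almost all from exons that Gs alpha, XL, Nesp and 1A messages can have in common.

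The Nespas entry, on the minus strand at chr2:174106738-174120937, had 5 exons. It had 531 reads in BxC and 365 in CxB. Of these, 44.3% and 43.6% fell on bases that are also Nesp exon, and 57.6% and 58.1% touched bases that belong to Nespas only. The deposited strand could not divide them, since only 45.7% of BxC and 45.1% of CxB reads over annotated introns of all genes lay on the strand of the gene. Reads of either strand were therefore counted throughout.

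Exon 1 was the exon most often joined to exon 2. In BxC, 495 of 547 reads into exon 2 came from exon 1, or 90.5% with an exact 95% interval of 87.7% to 92.8%. In CxB, 471 of 520 came from exon 1, or 90.6% with an interval of 87.7% to 92.9%. The shares in the 2 libraries lay within each other's intervals. By reads, exon 1A was next, with 26 in BxC (4.75%, interval 3.13% to 6.89%) and 34 in CxB (6.54%, interval 4.57% to 9.02%). This place was not firm, since in BxC its interval overlapped that of Nesp and by deposited lines both had 8 of 193 (4.15%). On the transcript strand exon 1A had 0 reads in BxC and 1 in CxB.

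Nesp gave 11 reads into exon 2 in BxC (2.01%) and 5 in CxB (0.962%). The XL exon gave 6 in BxC (1.10%) and 5 in CxB (0.962%). The 95-base exon after XL gave 9 in BxC and 5 in CxB, but with at least 8 bases on each side of the join only 2 and 0 of these were left. The intervals of these exons overlapped each other and between the libraries, so the order of Nesp, XL and the 95-base exon was not detectable at this depth. The 96-base exon annotated after Nesp gave 0 of 547 and 0 of 520 reads into exon 2. Per the paper's methods, joins were aligned to sequences built from gene models, and whether these held this join is not known. Only if they did does the 0 allow a share of up to 0.548% and 0.577%.

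**Figure D1:**
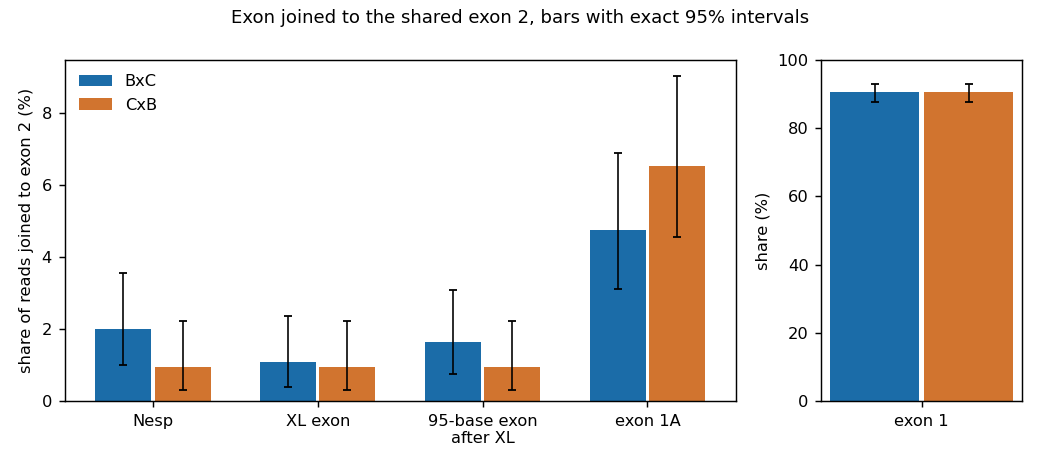
Share of 2-block reads into exon 2 (percent, vertical axis) by the exon joined to it, for the BxC and CxB libraries, with exact 95% intervals and exon 1 in a panel with its own axis. Exon 1 held 90.5% and 90.6%, and exon 1A 4.75% and 6.54%, above the point values of Nesp and XL.

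The levels of the first exons ranked in part differently from the joins. For an exon, intron or flank, a level is the number of aligned bases divided by the read length of 36. It is given per kilobase and per 1000000 reads of the library. For a whole annotated gene, the reads that overlap its exons are counted in place of aligned bases. Exon 1 (chr2:174155507-174155935) had 6177 reads and a level of 103 in BxC and 6918 reads and a level of 137 in CxB. Nesp exon 2 had a level of 18.96 in BxC and 17.6 in CxB, from 2175 and 1721 reads. Of the reads over both Nesp exons, 2281 of 2301 in BxC and 1888 of 1902 in CxB touched bases that annotated Nespas exons also hold. Reads of either strand were counted, so the Nesp levels can include Nespas reads. Exon 1A (chr2:174153071-174153442) had a level of 18.7 in BxC and 19.4 in CxB, from 950 and 839 reads. The XL exon (chr2:174123360-174125718) was lowest, with a level of 3.33 in BxC and 2.79 in CxB, from 1016 and 727 reads. The counting intervals of Nesp exon 2 (18.17 to 19.77) and exon 1A (17.52 to 19.91) overlapped in BxC and also in CxB (16.8 to 18.5 and 18.1 to 20.7), whereas exon 1 and XL stood apart from both.

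Exon 1 made up 71.6% of the summed level of these 4 exons in BxC and 77.5% in CxB, less than its share of the joins. Nesp exon 2 made up 13.1% and 9.98% of the sum, and XL 2.31% and 1.58%. The level of exon 1 was 5.45 times that of Nesp exon 2 in BxC and 7.76 times in CxB. It was 31.04 and 49.02 times that of XL (17.4 and 27.4 times by deposited lines). The exons differ in base composition, with 76.9% G and C in exon 1, 64.9% in Nesp exon 2, 63.9% in XL and 66.1% in exon 1A, and the part of this in the levels was not tested.

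**Figure D2:**
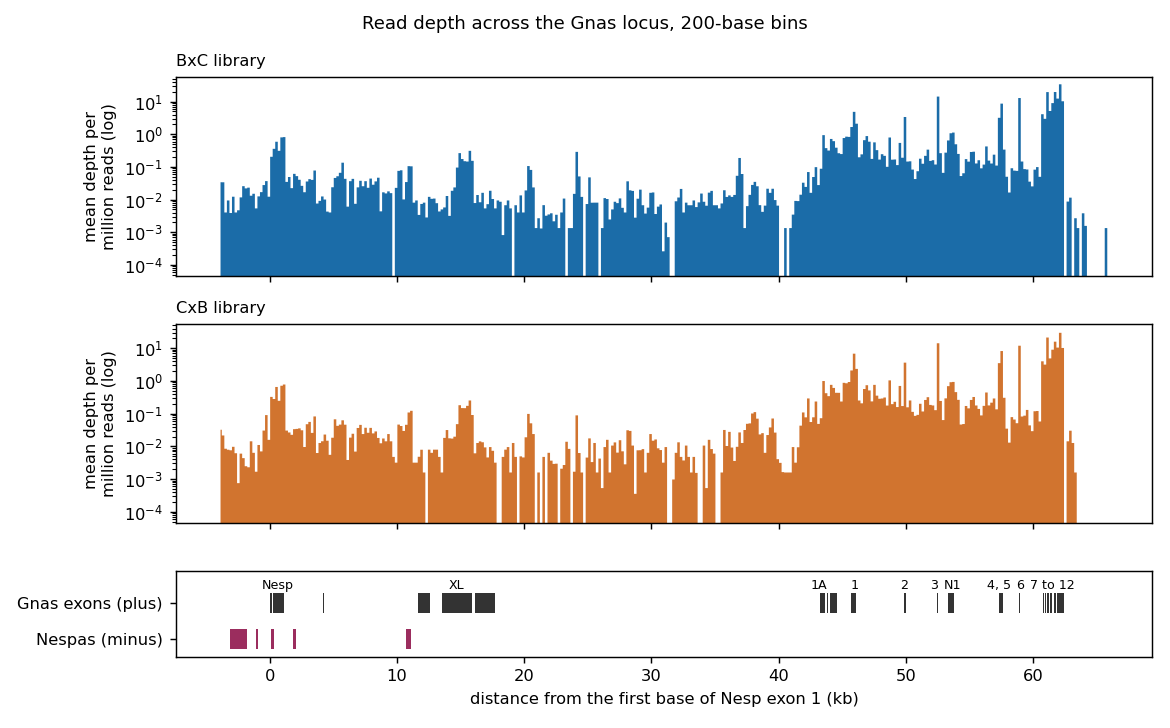
Mean depth per base and per 1000000 reads in 200-base bins (log axis) against the distance from the first base of Nesp exon 1 in kb, for each library, above the exons of the plus strand and of Nespas. Depth was highest over the shared exons at the right, lower over exons 1A and 1 and Nesp, and it fell after exon 12, with a level over the next 10 kb of 0.0248 in BxC and 0.0419 in CxB.

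The 2 exons of Nesp were joined to each other by 46 reads in BxC and 37 in CxB, in 16 and 10 deposited lines. At the end of Nesp exon 1, 87.0% of BxC reads and 92.5% of CxB reads were spliced, and the others ran on into the intron with at least 5 bases on each side of the exon end. Nesp exon 1 (chr2:174109821-174110009) had a lower level than Nesp exon 2, at 6.16 in BxC and 9.88 in CxB, from 172 and 218 reads. At the end of Nesp exon 2 there were only 15 spliced reads in BxC and 5 in CxB, of which 11 and 5 entered exon 2. Another 4 in BxC and 0 in CxB entered the 96-base exon. Both Nesp exons together had 2301 and 1902 reads, a log2 ratio of CxB over BxC of -0.04 (interval -0.13 to 0.05).

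A primer set listed under Gnas in the study's assay table lay in this Nesp exon. It serves to measure the share of each parental allele by pyrosequencing. The forward primer without its tail matched the plus strand at chr2:174110765-174110783. The reverse primer matched the minus strand at chr2:174110850-174110867 and the sequencing primer at chr2:174110832-174110846. The SNP it reads is position 727 of Nesp exon 2 (chr2:174110831-174110831). That base was covered by 230 reads in BxC and 183 in CxB, in 88 and 79 deposited lines. In the annotation this base also lies in a Nespas exon on the other strand, but no exon of the catalog Nespas entry reaches it. The primers are shown to mark this place, which lies outside exon 1 and the shared exons.
forward primer: ccagcgagggcccttagat
reverse primer: tggcctcctggtcttgca
sequencing primer: gcggggctgcctgtt

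Nespas was low and few of its reads were spliced. Bases that only Nespas holds as exon, 2155 in all, had 306 reads in BxC and 214 in CxB, a level of 1.06 and 0.867. Its first exon (chr2:174120571-174120937) had 168 and 154 reads and a level of 3.48 and 3.78, and its other exons, outside Nesp, 139 and 60 reads and a level of 0.568 and 0.269. The stretch between Nesp exon 2 and the first exon of Nespas, which the catalog treats as intron, had a level of 0.932 in BxC and 0.816 in CxB, above that of the later Nespas exons. Splice joins on Nespas sites were seen in 2 reads in BxC, at 2 different introns, and in 1 read in CxB. Over Nespas-only bases 46.1% of BxC and 46.7% of CxB reads lay on the minus strand, and over Nesp exon 2 the shares were 60.5% and 62.6%, so the strand of a read did not tell the transcripts apart.

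Past the 3′ end of the Nespas model, the next 10 kb had 506 reads in BxC and 273 in CxB, a level of 0.392 and 0.248. The microRNAs Mir298 and Mir296, which lie on the same strand 13.7 and 14.1 kb from the Nespas model, had 2 and 5 reads in BxC and 0 and 8 in CxB. For comparison, the 10 kb after exon 12 of Gnas held 32 reads in BxC and 46 in CxB.

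XL was joined to exon 2 at low counts. Its 6 BxC and 5 CxB reads came from 3 deposited lines in each library. At the end of the XL exon, 7 of 7 reads were spliced in BxC and 6 of 8 in CxB. The terminal exon that the annotation places after XL had, outside the 95-base exon, 61 and 45 reads over 1493 bases, a level of 0.304 and 0.263. This was below the level between the XL exons and exon 1A, at 0.489 and 0.574 over 25551 bases.

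By reads of either strand, joins from the 24-base exon after exon 1A more often entered a local terminal exon than exon 2. From exon 1A, 86 reads in BxC and 63 in CxB went to a 24-base exon (chr2:174153609-174153632), and 4 and 3 went straight to exon 2. Of reads from the 24-base exon to exon 2 or to the 581-base terminal exon of 1A (chr2:174153868-174154448), 71 of 93 in BxC (76.3%, interval 66.4% to 84.5%) and 52 of 83 in CxB (62.7%, interval 51.3% to 73.0%) entered the terminal exon, and 22 and 31 entered exon 2. By deposited lines the terminal exon took 14 of 20 (interval 45.7% to 88.1%) and 14 of 22 (40.7% to 82.8%), which no longer sets it above exon 2. On the transcript strand the join to the terminal exon had 0 reads in BxC and 0 in CxB. That to exon 2 had 0 in BxC and 1 in CxB, so on this strand the order was not detectable. The terminal exon had a level of 16.4 in BxC and 17.6 in CxB, close to that of exon 1A. At the end of exon 1A, 79.6% of BxC reads and 69.8% of CxB reads were spliced, with 23 and 29 reads that ran on into the intron. The unspliced bases between exon 1A and exon 1 had a level of 17.1 and 19.3, within the range of the 1A exons themselves.
24-base exon, whole: agctaacccaaggagcacctaagg
24-base exon to the 1A terminal exon, capitals in the terminal exon: aaggagcacctaaggGCAGCCAGTCCATCA

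By contrast, all reads at the end of exon 1 were spliced, 505 in BxC and 487 in CxB, with 0 that ran on. Of these, 10 in BxC and 16 in CxB passed over exon 2, but only 1 in each library had at least 8 bases on both sides of the join. Intron 1 had a level of 10.1 in BxC and 11.5 in CxB, intron 2 of 4.38 and 5.09, and intron 3 of 5.85 and 6.20, each below the exons on both sides of it.

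**Figure D3:**
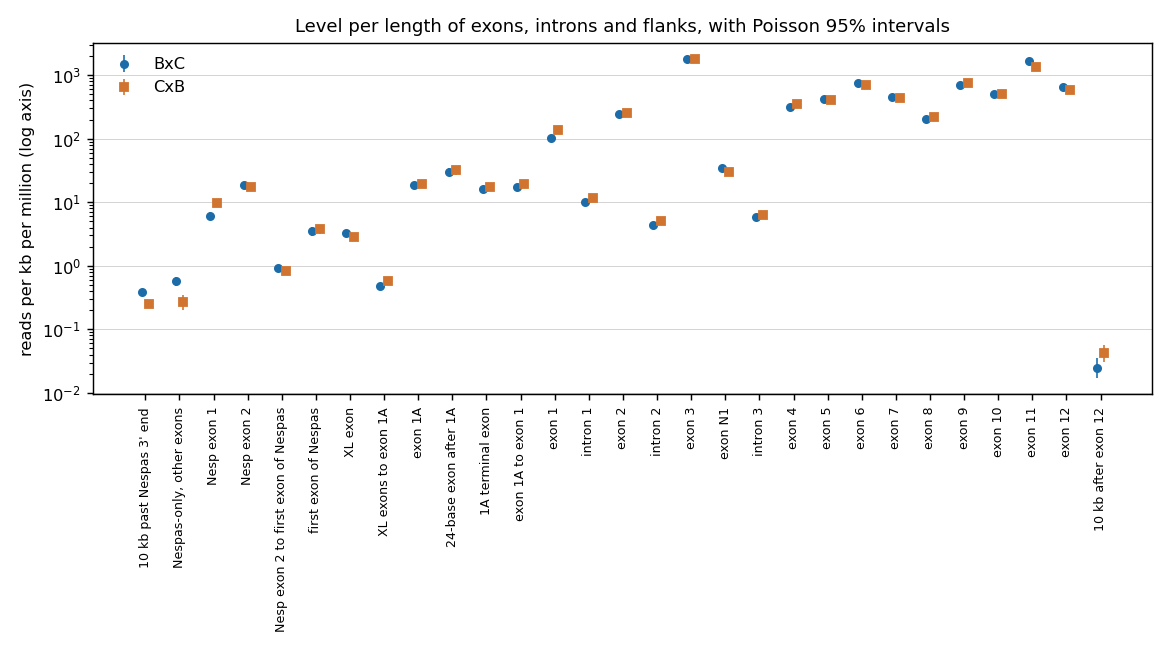
Level per length (reads per kb and 1000000 reads, log axis) of exons, introns and flanks in the order of the locus, with Poisson 95% intervals, for BxC (circles) and CxB (squares). Exons 2 to 12 lay above 200, exon 1 above 100, and Nespas, XL and the flanks below 4. Introns 4 to 11 are not plotted.

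The shared exons 2 to 12, with 1402 bases, held 118053 reads in BxC and 95084 in CxB, a level of 649 and 614. This was 6.28 times the level of exon 1 in BxC and 4.49 times in CxB, or 3.65 and 2.48 times by deposited lines. Levels within these exons ran from 202 (exon 8) to 1776 (exon 3) in BxC and from 217 (exon 8) to 1783 (exon 3) in CxB. Counted by deposited lines, exon 3 fell to 400 in BxC and 418 in CxB, near the other exons. The shared exons together fell to 309 and 295. The excess of exon 3 thus came with many reads per line.

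The read starts over the shared exons were the same in both libraries to a large degree. Of 2698 starts in BxC, the deepest 64 held 50% of the reads, as did the deepest 68 of 2609 in CxB. The deepest start held 4.52% of the reads in BxC and 3.32% in CxB, and 9 of the 10 deepest starts were the same. Across 2818 starts seen in either library, the counts had a Pearson r of 0.98 and a Spearman rho of 0.83, which is a description across positions of the same exons that share base composition. The strand of the joins was as uneven, with 94.9% of BxC reads from exon 11 to exon 12 on the plus strand but 6.58% of those from exon 10 to exon 11.

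Exon 3, which is kept in the long form of Gs alpha and left out of the short form, was included in nearly all reads from exon 2 to exon 3 or exon 4. It was skipped in 9 of 845 BxC reads (1.07%, interval 0.488% to 2.01%) and in 8 of 698 CxB reads (1.15%, interval 0.496% to 2.25%). Counted by deposited lines the shares were 2.42% and 2.12%. The joins that bear on this choice are shown with the first bases of the downstream exon in capitals.
exon 2 to exon 3: tgggtttaacggagaGGGCGGCGAAGAGGA
exon 3 to exon 4: gagcaacagcgatggTGAGAAGGCCACTAA
exon 2 to exon 4: tgggtttaacggagaTGAGAAGGCCACTAA

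Exon 4 has a second acceptor 3 bases upstream, which adds the bases in capitals to the message when it is used.
exon 2 to the upstream acceptor of exon 4: tgggtttaacggagaTAGtgagaaggccac
Its intron ends in TG and not in the usual AG. After exon 2, that is when exon 3 was skipped, it was used in 7 of 9 BxC reads (77.8%, interval 39.99% to 97.19%) and 7 of 8 CxB reads (87.5%, interval 47.3% to 99.7%). After exon 3 it was used in 0 of 774 and 0 of 704 reads. If this join could be aligned at all, that allows, by a limit of 3 reads, 0.388% and 0.426% (exact interval up to 0.475% and 0.523%). By deposited lines the counts were 6 of 8 and 4 of 5 after exon 2, and 0 of 251 and 0 of 195 after exon 3. The intervals of the 2 kinds of join did not overlap in either library. Per the paper's methods, however, joins were aligned to sequences built from gene models. Whether these held the join from exon 3 to the upstream acceptor is not known, so its 0 may have been fixed in advance and no difference is concluded.

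Exon N1 (chr2:174163122-174163585) is a terminal exon in intron 3, which ends the message after exon 3. Of reads that left exon 3, 215 of 989 in BxC (21.7%, interval 19.2% to 24.4%) and 157 of 861 in CxB (18.2%, interval 15.7% to 21.0%) entered exon N1. These reads came from only 20 and 17 deposited lines, the deepest with 79 and 50 reads, and by lines the shares were 7.38% and 8.02%. The level of exon N1 was 33.99 in BxC and 30.34 in CxB, against 319 and 348 for exon 4.
exon 3 to exon N1, capitals in N1: gagcaacagcgatggAGTCTATTACCCCCA

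Ratios between the libraries were taken from read counts, and by these 0 of 20 exons of the locus with at least 100 reads in each library were past 1.5-fold. Exon levels count aligned bases instead, and by level Nesp exon 1, at 6.16 in BxC and 9.88 in CxB, was past it. Over whole annotated genes with as many reads, 1.10% of 15427 were past that ratio. The median log2 ratio over all genes was -0.00, the 5th percentile -0.29 and the 95th 0.28. The 3 sets of catalog exons had log2 ratios of -0.31 for Nespas (interval -0.50 to -0.11), 0.03 for the Gnas and Nesp blocks (-0.03 to 0.09) and -0.08 for Gnasxl (-0.09 to -0.07). A lower level in such whole-brain RNA can mean fewer cells with the transcript or less RNA per cell, and these cannot be told apart.

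Exon 1 was higher in CxB than in BxC, with a log2 ratio of 0.40 (interval 0.35 to 0.45), whereas the shared exons had -0.08 (-0.09 to -0.07). Along the gene the ratio was 0.08 for exon 2, 0.00 for exon 3, 0.07 for exon 4, -0.06 for exon 5 and -0.09 for exon 6. It was -0.02 for exon 7, 0.14 for exon 8, 0.09 for exon 9 and 0.03 for exon 10. Exon 11 had -0.26 and exon 12 -0.17, or -0.11 and -0.18 by deposited lines. Introns 1, 2 and 3 had ratios of 0.20, 0.12 and 0.11. The later introns did not share this direction. Introns 4, 5 and 9 had -0.34, -0.42 and -0.32, and introns 6, 8, 10 and 11 had -0.02, -0.01, -0.13 and -0.18. Intron 7 had 0.31. The difference between exon 1 and exon 12 was 0.57. It was set beside 7357 protein-coding genes with at least 100 reads in the first and in the last exon in each library. Their exons came from the transcript with the most exons. Their median difference was -0.00, the 10th percentile -0.38 and the 90th 0.36, and 2.96% had a difference of at least 0.57. For Gnas, exon 1 was instead set by hand among several first exons, so the 2.96% does not place Gnas by the same rule. Among all first exons with at least 100 reads in each library, whatever the count of the last exon, the 1249 with at least 75% G and C had a median ratio of 0.19 and the 6886 others 0.01, and 20.7% of those rich in G and C had a ratio of at least that of Gnas exon 1. The part of base composition in the ratio of exon 1 was not tested.

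**Figure D4:**
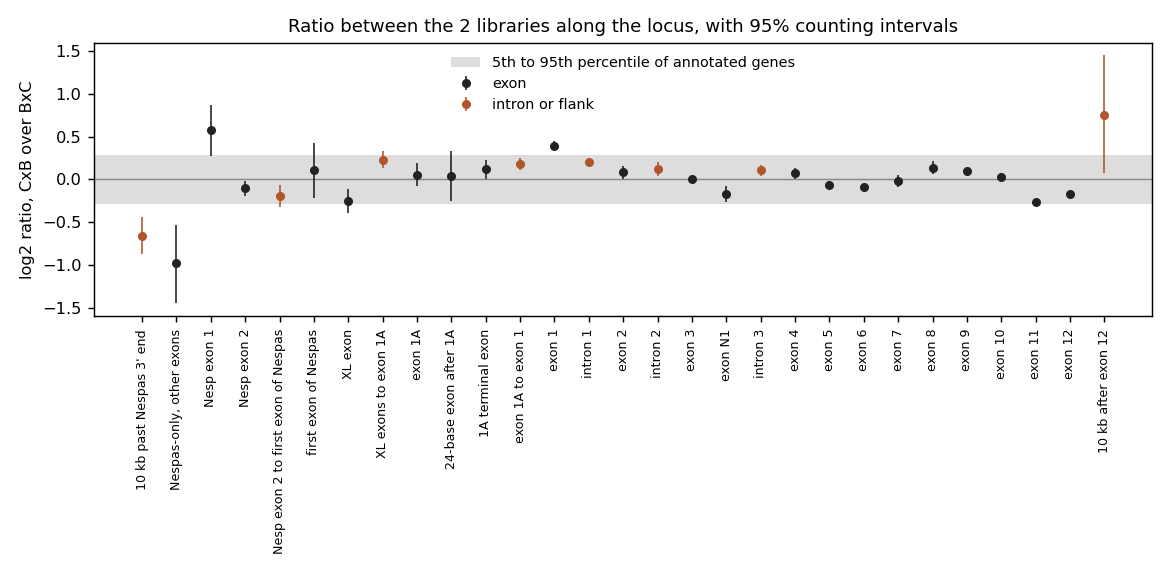
Log2 ratio of CxB over BxC RPM (vertical axis) for exons and for introns and flanks in the order of the locus, with 95% counting intervals and a grey band from the 5th to the 95th percentile of annotated genes. Exon 1 at 0.40, Nesp exon 1 at 0.57 and the 10 kb after exon 12 at 0.76 (32 and 46 reads) lay above the band. The shared exons lay within it. Introns 4 to 11 are not plotted. The 10 kb past the 3′ end of Nespas at -0.66 and the other Nespas-only exons at -0.98 lay below it.

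The other first exons had smaller differences or wider intervals. The XL exon had a log2 ratio of -0.25 (interval -0.39 to -0.11) and exon 1A one of 0.05 (-0.08 to 0.19). Nesp exon 1 had 0.57 (0.28 to 0.87) and Nesp exon 2 had -0.10 (-0.20 to -0.01). Nesp exon 1 had 72 deposited lines in BxC and 43 in CxB, so that its ratio by reads rested on lines with many reads. By deposited lines its level was 8.86 in BxC and 6.29 in CxB, which is the opposite direction. Nespas-only bases had -0.28 (-0.54 to -0.03), made up of 0.11 (-0.22 to 0.43) for the first exon and -0.98 (-1.44 to -0.53) for the other exons, the latter with fewer than 100 reads in CxB. The 10 kb past the 3′ end of Nespas had -0.66 (-0.87 to -0.44), and no share over such stretches of other genes was computed. By deposited lines its ratio was -0.43.

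The genes around the locus gave the level of its surroundings. Of annotated genes within 200 kb, Th1l, on the side of exon 12, had a level of 37.5 in BxC and 31.1 in CxB, with a log2 ratio of -0.27 (-0.31 to -0.23). Ctsz, which encodes a lysosomal protease, had 25.8 and 23.2, Atp5e, a subunit of mitochondrial ATP synthase, 22.2 and 21.8, and Slmo2 17.4 and 15.6. On the side of Nesp, Stx16, a syntaxin, had 20.6 and 21.1, and Npepl1 7.87 and 7.75. Tubb1 had 16 and 2 reads, and Gm10714 6 and 0. None of the 6 with at least 100 reads in each library was past 1.5-fold, beside 1.10% of 15427 annotated genes.

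As a whole annotated gene, Gnas had 134449 reads in BxC and 110657 in CxB, the 33rd and 31st highest counts. Its level over all annotated exon bases was 93.2 and 90.2, which was rank 316 of 26121 genes with reads in BxC and 317 of 25677 in CxB, since the gene model also holds long terminal and retained exons. The genes nearest to it in level, by the summed absolute log2 difference over both libraries, were Ddx17 (93.5 and 89.8), Palm (93.7 and 89.7) and Midn (91.7 and 90.02). The minus-strand model AF085738 overlaps the same exons with 98.8% of its bases. Its 119640 and 96602 reads cannot be told apart from those of Gnas.

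By the level over all annotated exon bases, Gnas was the third of 16 G alpha subunits, after Gnai2, of the inhibitory class, with 165 in BxC and 149 in CxB, and Gnao1, the abundant neuronal subunit, with 125 in both. By reads Gnas was the first of the list, ahead of Gnao1 with 109088 in BxC and 92735 in CxB. Gnal, the olfactory and striatal relative of Gs alpha, had 28.03 and 30.76. The beta and gamma partners with the highest levels were Gnb1 (167 and 177), Gnb2 (63.4 and 66.7), Gng2 (127 and 143), Gng3 (79.0 and 82.7) and Gng10 (55.5 and 51.5). Of the adenylyl cyclases, which Gs alpha activates, Adcy1 (19.3 and 21.2), Adcy5 (12.4 and 12.1) and Adcy6 (10.9 and 11.2) were highest. Of protein kinase A, the cyclic AMP sensor, Prkar1b (55.2 and 57.6), Prkaca (46.2 and 54.5) and Prkar1a (36.9 and 38.8) led. Of the phosphodiesterases that degrade cyclic AMP, only 8 genes of the Pde4, Pde7 and Pde8 families were listed. These 8 were lower, with at most 7.36 in BxC (Pde4a) and 7.70 in CxB (Pde7a).

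Receptors that couple to Gs were also low except for Adcyap1r1, the receptor of the peptide PACAP, with 32.9 and 32.4. The next were Adora2a (4.39 and 4.24) and Crhr1 (3.71 and 3.85). Ric8b, a chaperone of Gs alpha, had 9.85 and 11.1, and Creb1, the cyclic AMP response factor, 12.8 and 12.1. Of the 77 genes of these lists other than Gnas, 64 had at least 100 reads in each library. Beside 1.10% of 15427 annotated genes, 0 of these 64 were past 1.5-fold in either direction, and their median log2 ratio was 0.05. With at least 10 reads, 3 of 75 were, all lower in CxB, namely Gna14 (123 and 52 reads), Gngt2 (80 and 25) and Gnat1 (63 and 33), beside 7.74% of 19839 genes. These 3 were named after their values were seen.

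The 7 granins and related secretory proteins, the family that Nesp resembles, all had higher levels than the Nesp exons (16.7 and 16.3). Pcsk1n was highest (124 and 142), followed by Scg3 (59.4 and 58.2) and Scg5 (49.6 and 49.5). Of the 7, 0 were past 1.5-fold, beside 1.10% of 15427 annotated genes. Both libraries held the brain markers, with Tubb3 at 974 and 840, Stmn2 at 343 and 355 and Fabp7 at 152 and 160, and the 6 of 7 markers with an annotated symbol summed to 1619 in BxC and 1513 in CxB. Pituitary markers were at or near 0, with Gh and Cga at 0 reads in both and Pomc, which the hypothalamus also makes, at 1.69 and 1.67. The list of 5 summed to 1.81 and 1.69. Muscle markers summed to 3.52 and 3.47, and Ckm was the only marker with at least 100 reads in each library that was past 1.5-fold, with 155 and 202 reads. Liver and skin markers summed to 0.0112 and 0.304 in BxC and to 0.214 and 0.484 in CxB. The choroid plexus marker Ttr had 253 and 281, and the 2 globins of red blood cells summed to 271 in BxC and 221 in CxB. The part of these cells in the values of the locus was not tested.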

How the data were processed

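Polyadenylated RNA of 1 BxC and 1 CxB whole brain at E17.5 had been sequenced in reads of 36 bases. Per the labels and the methods, the authors aligned them with Novoalign, kept unique alignments and deposited positions on mm9 as BED lines. The fourth column was used as a count of identical reads, a meaning inferred from the values and not named by the authors. The deposited catalog (unit other) lists exon blocks with no measurement. In all, 128944754 BxC reads and 109719746 CxB reads were deposited.

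The design had set reads on the strand of the transcript as the main count. The paper's methods describe a dUTP step to keep the strand, which the labels do not name. The deposited reads did not carry that strand (45.7% and 45.1% of reads over annotated introns lay on the strand of the gene), so reads of either strand were counted in its place. Exons, introns and genes came from GENCODE vM1 on NCBIM37, which is mm9. Read ends lay within the chromosome lengths except by 4 bases on chromosome 9. A read was counted where an aligned block overlapped a feature, and a join where both blocks ended at it. Shares carry exact Clopper-Pearson intervals at 95%, levels Poisson intervals, and ratios the interval of the exact binomial share. PCR copies are not independent molecules, so all of these cover counting error only. A count of 0 allows up to 3 reads, for a join that could be aligned. Among symbols of the lists, 1 (Pde4d) is borne by more than 1 annotated gene, and the one with the most reads was used.

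Named were the catalog entries and first exons with a join into exon 2, annotated genes within 200 kb, the 3 genes nearest to Gnas in level, and in each list the 3 genes with the highest level and those past 1.5-fold with at least 100 reads. Gnal was given values outside this rule, since other G alpha subunits had higher levels. The members and lists were chosen with earlier results of these data known. The comparison of first with last exons was added after the data were seen. Alternatives were deposited lines in place of reads, totals without chromosomes X and M and scaling by the median ratio. Others were joins with at least 8 bases on each side, a minimum of 10 reads and the transcript strand. The counter and the ratio intervals were tested on simulated data. Python with numpy, pandas, scipy and matplotlib was used.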

Additional observations from a re-analysis of the deposited data

How the results depend on the processing

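No paired analysis was possible because each cross has 1 library and the result comes from no test. The main values of each comparison, 25 in all, were recomputed under 65 combinations of value and setting, and 33 of these counted as unchanged. A share, level or ratio was unchanged if it stayed within the counting interval of its main value. The count of Gs pathway genes has no such interval and was unchanged if equal or within 1.5-fold. None of the main ratios was past 1.5-fold, so a reversal of such a ratio could not occur. Each recomputed ratio kept the sign of its main value. The ratios of each Nesp exon alone, the first exon of Nespas, exons 2 to 10 and the introns were not among those recomputed. By deposited lines several of these levels ran opposite to the ratio by reads. Nesp exon 1, the first exon of Nespas (5.70 in BxC and 5.12 in CxB), exon 4 (292 and 288) and exon 10 (321 and 292) were lower in CxB. Exon 6 was higher (350 and 352). Scaling without chromosomes X and M or by the median ratio left each recomputed ratio within its interval. Each of these scalings shifts all ratios by the same amount, which was smaller than the reach of every interval. They could not move a ratio, so part of the 33 unchanged values was fixed in advance. By deposited lines the log2 ratio was -0.15 for the Nesp exons and 0.48 for exon 1. On that count the levels were 4.87 in BxC and 4.34 in CxB for XL, 12.7 and 13.7 for exon 1A, and 84.8 and 119 for exon 1. The minus strand held 51.8% and 51.3% of lines over Nesp exon 2, exon 3 was skipped in 2.42% in BxC, and exon N1 took 7.38% and 8.02%. With at least 8 bases on each side exon N1 took 30.9% and 27.2%. With at least 10 reads, 3 genes of the Gs pathway lists were past 1.5-fold against 0. The transcript strand, added after the data were seen, put exon 1 at 95.9% and 96.03% of joins into exon 2, exon 1A at 0 and 0.361%, exon N1 at 1.205% and 1.37%, and exon 3 skipping in CxB at 3.01%. On that strand the log2 ratio was -0.20 for the Nesp exons, -0.41 for XL and -0.10 for the shared exons. Levels on it were 7.44 and 6.44 for Nesp exon 2, 1.72 and 1.29 for XL, 14.3 and 15.2 for exon 1A, and 47.8 and 63.2 for exon 1, lower because reads of the other strand are left out. The cause of the other changes was not tested. Depth limits the rarer joins, of which Nesp and XL had 5 to 11 reads in each library.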
